A study of Mus musculus with 11 samples.

Results

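Dlx1, Dlx2, Dlx5, Dlx6, Gad1, Gad2 and Lhx6 are genes of the ventral GABAergic lineage, and their RNA was followed here through cultures of mouse embryonic neural stem cells moved into 3 differentiation media. The members are the rows of the deposited expression table whose mouse gene symbol is one of these 7 names, which gave 7 of 37991 genes. The table holds 11 libraries of polyadenylated RNA in 4 groups, from cells of C57BL/6J embryos taken at E14.5 and grown from the frontal cortex. The NSC group (3 libraries) was collected at day 0 in a proliferation medium for embryonic neural stem cells (Complete Embryonic NeuroCult Proliferation Medium). All other groups were collected at day 4. The Astrocyte group (3 libraries) was in DMEM with 1% N-2, 1% FBS and 2 mM GlutaMAX. The Neuron group (3 libraries) was in Neurobasal with 2% B-27 and 2 mM GlutaMAX. The Oligodendrocyte group (2 libraries) had the Neuron medium with 30 ng/mL of the thyroid hormone T3 added. The group names are those of the media and not of purified cells. No library was kept in NSC medium to day 4, so medium and time cannot be told apart in the comparisons with NSC.

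In the embryonic forebrain, GABAergic interneurons and projection neurons arise from the ganglionic eminences of the ventral telencephalon, while glutamatergic neurons arise from the cortex itself. Dlx genes encode homeodomain transcription factors that are switched on in these ventral progenitors and stay on as the cells become GABAergic, in a cascade in which Dlx1 and Dlx2 act before Dlx5 and Dlx6. Gad1 and Gad2 encode the enzymes GAD67 and GAD65, which make GABA from glutamate. Lhx6 encodes a LIM-homeodomain factor of interneurons from the medial ganglionic eminence.

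Dlx1 and Dlx2 are neighbours on mouse chromosome 2 and are read towards each other, as are Dlx6 and Dlx5 on chromosome 6. In the deposited table, whose positions are those of NCBIM37, Dlx1 (ENSMUSG00000041911) lies at chr2:71366170-71372038 on the plus strand and Dlx2 (ENSMUSG00000023391) at chr2:71381466-71384811 on the minus strand, with 9427 bases between them. Dlx6 (ENSMUSG00000029754) lies at chr6:6813334-6818568 on the plus strand and Dlx5 (ENSMUSG00000029755) at chr6:6827805-6832085 on the minus strand, 9236 bases apart. Gad1 (ENSMUSG00000070880) is at chr2:70391129-70440071, Gad2 (ENSMUSG00000026787) at chr2:22477725-22549394 and Lhx6 (ENSMUSG00000026890) at chr2:35937470-35960928. An antisense gene covers 100% of the Dlx1 gene (Dlx1as) and another covers 100% of the Dlx6 gene (listed as Dlx6as1). The libraries came from a strand-marking kit, but whether the counting used strand is not given in the sources used here. If it did not, reads of Dlx1 and Dlx6 cannot be told apart from those of their antisense partners.

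The 250 bases before the start of Dlx1, Dlx2, Gad1 and Gad2 are shown because these are the members whose levels changed between the groups and for which RefSeq promoters (GRCm38.p6) were at hand; 5 of the 7 members matched that table, with Lhx6 as the fifth. Capitals mark the E-box CANNTG, the site class bound by proneural factors. The palindromic core TAATTA of homeodomain sites was searched as well. Both motifs read the same on either strand and they do not overlap.
Dlx1: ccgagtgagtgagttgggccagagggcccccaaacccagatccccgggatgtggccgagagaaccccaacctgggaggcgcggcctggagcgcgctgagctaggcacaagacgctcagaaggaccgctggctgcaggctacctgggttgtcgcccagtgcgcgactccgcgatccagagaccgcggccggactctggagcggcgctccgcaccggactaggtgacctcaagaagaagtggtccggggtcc
Dlx2: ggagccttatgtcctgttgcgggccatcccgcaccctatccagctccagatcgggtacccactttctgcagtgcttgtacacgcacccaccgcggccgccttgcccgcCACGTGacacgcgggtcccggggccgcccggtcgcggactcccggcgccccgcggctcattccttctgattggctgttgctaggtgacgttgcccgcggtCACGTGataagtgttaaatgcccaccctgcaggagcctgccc
Gad1: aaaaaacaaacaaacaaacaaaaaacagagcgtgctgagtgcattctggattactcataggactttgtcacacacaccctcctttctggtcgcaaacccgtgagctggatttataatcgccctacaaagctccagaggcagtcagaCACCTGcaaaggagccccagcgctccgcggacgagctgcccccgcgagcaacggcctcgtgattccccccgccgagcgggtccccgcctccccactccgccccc
Gad2: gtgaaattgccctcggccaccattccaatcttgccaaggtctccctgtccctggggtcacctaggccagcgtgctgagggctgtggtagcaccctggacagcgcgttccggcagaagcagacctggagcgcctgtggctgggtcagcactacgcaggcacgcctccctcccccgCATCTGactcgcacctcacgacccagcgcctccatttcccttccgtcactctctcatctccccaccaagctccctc
These windows are chr2:71529195-71529444 on the plus strand for Dlx1, chr2:71546755-71547004 on the minus strand for Dlx2, chr2:70561879-70562128 on the plus strand for Gad1 and chr2:22622077-22622326 on the plus strand for Gad2. Their starts are those of RefSeq on GRCm38.p6 and need not match the gene starts given above, which are on NCBIM37. The Dlx2 window held CACGTG at -142 and again at -42, counted back from the RefSeq start. The Gad1 window held CACCTG at -104, and the Gad2 window held CATCTG at -76. The Dlx1 window held no CANNTG, and TAATTA was in none of the 4 windows. Of 32851 RefSeq windows of this length, 66.2% held CANNTG and 4.84% held TAATTA. GC content was 68% for Dlx1, 66.4% for Dlx2, 58% for Gad1 and 64% for Gad2, against a median of 52.4% over all windows.

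Levels are CPM, the reads of a gene scaled by the authors to a fixed library total, and differences were tested as differences of mean log2(CPM + 1) with limma across 13342 genes that reached 1 CPM in at least 2 libraries. A gene was called higher or lower at a Benjamini-Hochberg adjusted p under 0.05. CPM is not divided by gene length, so levels are compared between groups and not between genes. The step between low values put the depth at 49.3 to 66.2 M reads a library, and 3 reads at 0.0453 to 0.0609 CPM. Mitochondrial genes took 4.54% to 4.71% of that fixed total in NSC and 6.13% to 8.91% at day 4. The 7 astrocyte markers summed to 1487 to 1544 CPM in NSC, 13161 to 14811 in Astrocyte, 7887 to 8602 in Neuron and 3090 to 3460 in Oligodendrocyte. The 5 oligodendrocyte markers summed to 67.6 to 75.5 CPM in NSC, 406 to 517.1 in Astrocyte, 2498 to 2673 in Neuron and 2390 to 2732 in Oligodendrocyte, and the 6 precursor markers to 1790 to 1921, 707 to 794, 1603 to 2161 and 1335 to 1458. Each day 4 group therefore held markers of more than its own named type. Olig1 and Olig2 made up most of the precursor sum in NSC, at means of 1019 and 732.9 CPM. Olig1, Olig2 and Cspg4 had lower means in every day 4 group than in NSC, while Pdgfra, Sox10 and Gpr17 had higher means. The 3 cycling genes Mki67, Top2a and Ccnb1 summed to 1667 to 1801 CPM in NSC and 24.5 to 71.4 at day 4. The progenitor genes Nes and Sox2 summed to 1525 to 1540 in NSC and 562 to 736 at day 4, but their means went opposite ways. Mean Nes was 1251 CPM in NSC and 198.8, 70.4 and 419.1 in Astrocyte, Neuron and Oligodendrocyte. Mean Sox2 was 281.3 CPM in NSC and 395.1, 533.8 and 315.4 in the same order. Markers of cell types that could be carried along were low: 5 microglial genes summed to at most 1.32 CPM, 5 mesenchymal genes to at most 0.85, 5 endothelial genes to at most 7.37 (Astrocyte) and 5 choroid plexus genes to at most 42.5 (Astrocyte). Single genes made up most of these sums (Kdr for endothelium, P2ry12 for microglia, Otx2 for choroid plexus), while Cdh5 was listed at 0 in all day 4 libraries and Ttr was at most 0.15 CPM. Of the choroid plexus list, Folr1 was at most 0.03 CPM in NSC, 9.53 to 10.36 in Astrocyte, 1.89 to 2.78 in Neuron and 2.09 to 2.29 in Oligodendrocyte, and Aqp1 was at most 0.25, 0.94, 3.15 and 1.53 in the same order. Kdr was 5.37 to 7.07 CPM in Astrocyte and at most 2.65 elsewhere. Astrocyte, endothelial and choroid plexus sums were highest in Astrocyte, where the Dlx genes were highest too, and their part in the results was not tested. Gfap weighed most in the astrocyte sum of that group, at a mean of 7631 CPM. Mean Gfap, Aqp4 and Gja1 were higher in Astrocyte than in Neuron, while mean Aldh1l1, Slc1a2, Slc1a3 and S100b were lower. Median log2 differences over all tested genes were above 0 at 0.15 for Astrocyte against NSC, 0.19 for Oligodendrocyte against NSC, 0.10 for Astrocyte against Neuron and 0.15 for Oligodendrocyte against Neuron, and the members' differences are to be read against these. In bulk RNA, fewer cells of a type and less RNA per cell cannot be told apart. Nothing in the labels says that replicates came from separate cultures, so the p-values measure the spread between these libraries.

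Dlx1 rose at day 4 in every medium and was highest in Astrocyte. Its levels were 3.63, 3.96 and 3.77 CPM in NSC, 40.89, 40.92 and 54.54 in Astrocyte, 24.23, 20.11 and 28.35 in Neuron, and 11.98 and 9.50 in Oligodendrocyte. No library of any group overlapped another group, and the order ran from NSC through Oligodendrocyte and Neuron to Astrocyte. Mean CPM was 12 times the NSC mean in Astrocyte, 6.40 times in Neuron and 2.84 times in Oligodendrocyte. The log2 difference from NSC was 3.27 (SE 0.133, limma adjusted p = 3.21e-11) in Astrocyte. It was 2.39 (limma adjusted p = 9.78e-10) in Neuron and 1.29 (SE 0.149, limma adjusted p = 2.47e-06) in Oligodendrocyte. All neighbours in the order differed, since Astrocyte exceeded Neuron by 0.88 (limma adjusted p = 6.75e-05) and Oligodendrocyte lay below Neuron, at -1.10 (limma adjusted p = 2.30e-05).

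Dlx2, the partner gene of Dlx1, rose too, with a narrower range. It measured 4.39, 4.69 and 4.95 CPM in NSC, 21.31, 23.34 and 29.14 in Astrocyte, 13.23, 12.32 and 14.34 in Neuron, and 11.09 and 12.35 in Oligodendrocyte. Astrocyte stood above the rest and NSC below, while the Neuron and Oligodendrocyte libraries overlapped. Log2 differences from NSC were 2.16 in Astrocyte (limma adjusted p = 2.15e-10), 1.33 in Neuron (4.17e-08) and 1.16 in Oligodendrocyte (6.46e-07). Astrocyte exceeded Neuron by 0.83 (limma adjusted p = 1.43e-05). Oligodendrocyte and Neuron, the neighbours in the middle of the order, gave -0.17 (SE 0.118, limma adjusted p = 0.223), which was not called. That difference was called lower with median-of-ratios scaling (-0.31, limma adjusted p = 0.0343) and with quantile normalization (-0.40, limma adjusted p = 0.0116).

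Dlx5, which acts later in the cascade, was absent or nearly so at day 0 and present in all 8 day 4 libraries. NSC libraries were listed at 0, 0 and 0.03 CPM, the last being about 2 reads. Astrocyte measured 3.68, 3.34 and 5.40 CPM, Neuron 1.89, 2.18 and 1.73, and Oligodendrocyte 1.07 and 0.90. The groups did not overlap, in the same order as for Dlx1. Because NSC was at or near 0, Dlx5 passed the low-value filter only through day 4 libraries and no fold against NSC is given. The tests of Dlx5 against NSC, and of Oligodendrocyte against the other day 4 groups, are therefore not independent of the filter. Between the day 4 groups, mean CPM in Astrocyte was 2.14 times that in Neuron (log2 difference 0.79, limma adjusted p = 0.000113). Oligodendrocyte was below Neuron, at -0.56 (limma adjusted p = 0.00331). The differences from NSC on the log2(CPM + 1) scale, which depend on the pseudocount at such levels, were 2.33 in Astrocyte, 1.54 in Neuron and 0.97 in Oligodendrocyte (limma adjusted p = 6.98e-10, 6.41e-08 and 2.40e-05).

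Dlx6, the neighbour of Dlx5, was listed at 0 in all 3 NSC libraries. It measured 1.24, 2.00 and 2.60 CPM in Astrocyte, 0.69, 1.03 and 1.07 in Neuron, and 0.16 and 0.43 in Oligodendrocyte, where the libraries held about 10 and 27 reads. Again no groups overlapped, and the order was that of Dlx1 and Dlx5. Dlx6 also passed the filter only through day 4 libraries. As for Dlx5, its tests against NSC, and of Oligodendrocyte against the other day 4 groups, are not independent of the filter. The log2(CPM + 1) difference of Dlx6 from NSC was 1.53 in Astrocyte (limma adjusted p = 3.89e-07) and 0.94 in Neuron (5.23e-05). In Oligodendrocyte it was 0.37 (SE 0.168, limma adjusted p = 0.0605), which was not called. It was called with a pseudocount of 0.1 (1.89, limma adjusted p = 0.000212) and without the first Oligodendrocyte library (0.52, limma adjusted p = 0.0441). Among the day 4 groups, Astrocyte exceeded Neuron by 0.59 (limma adjusted p = 0.00393) and Oligodendrocyte lay below Neuron, at -0.58 (limma adjusted p = 0.00816). That last call was lost without the first Oligodendrocyte library (-0.43, limma adjusted p = 0.104).

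Lhx6 was listed at 0 in every NSC, Astrocyte and Oligodendrocyte library and in Neuron replicates 1 and 3. Neuron replicate 2 was listed at 0.06 CPM, about 3 reads, so Lhx6 was at or under the limit of 3 reads in all 11 libraries. It did not reach the filter and was not tested. Nkx2-1, which lies upstream of Lhx6 in the medial ganglionic eminence, ranged from 0.10 to 0.42 CPM over the 11 libraries. Its groups overlapped except for NSC and Oligodendrocyte, and it was not tested either.

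Gad1 did not follow the Dlx order. Its levels were 16.48, 15.08 and 15.01 CPM in NSC, 22.91, 19.65 and 25.12 in Astrocyte, 37.77, 30.01 and 38.10 in Neuron, and 9.63 and 7.43 in Oligodendrocyte. The 4 groups did not overlap, with Neuron highest and Oligodendrocyte lowest, under the day 0 level. Neuron exceeded NSC by 1.13 (SE 0.116, limma adjusted p = 6.37e-07) and Astrocyte exceeded NSC by 0.51 (SE 0.116, limma adjusted p = 0.00109). Oligodendrocyte was lower than NSC, at -0.80 (SE 0.129, limma adjusted p = 6.24e-05). Astrocyte was lower than Neuron, at -0.62 (limma adjusted p = 0.000391), the reverse of the 4 Dlx genes. With T3 added to the Neuron medium, mean Gad1 was 4.14 times lower (log2 difference -1.93, limma adjusted p = 3.13e-08).

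Gad2, the gene of the second GABA-making enzyme, differed again. It measured 0.22, 0.12 and 0.12 CPM in NSC, which is about 13, 7 and 7 reads. At day 4 it measured 1.37, 1.18 and 2.40 CPM in Astrocyte, 0.63, 0.38 and 0.94 in Neuron, and 1.46 and 0.96 in Oligodendrocyte. All day 4 libraries were above NSC, while Oligodendrocyte overlapped Astrocyte and did not overlap Neuron. Gad2 passed the filter only through day 4 libraries, and Astrocyte was the only group that passed it by itself. The tests of Gad2 in Astrocyte against NSC and Neuron are therefore not independent of the filter. Its log2(CPM + 1) difference from NSC was 1.17 in Astrocyte (limma adjusted p = 1.42e-05), 0.93 in Oligodendrocyte (0.000360) and 0.50 in Neuron (0.0114). The Neuron call was lost without Neuron replicate 3 (0.38, limma adjusted p = 0.0613), with a pseudocount of 5 (0.13, limma adjusted p = 0.0586) and with quantile normalization (0.08, limma adjusted p = 0.622). The Oligodendrocyte call was lost with quantile normalization (0.35, limma adjusted p = 0.0786). Astrocyte exceeded Neuron by 0.67 (limma adjusted p = 0.00294). Oligodendrocyte against Neuron gave 0.43 (SE 0.183, limma adjusted p = 0.0538) and Oligodendrocyte against Astrocyte gave -0.24 (limma adjusted p = 0.284), neither of which was called. The first of these was called higher when Astrocyte replicate 2 or 3, Neuron replicate 3 or Oligodendrocyte replicate 2 was left out (limma adjusted p = 0.0467, 0.0178, 0.0240 and 0.0463).

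**Figure D1:**
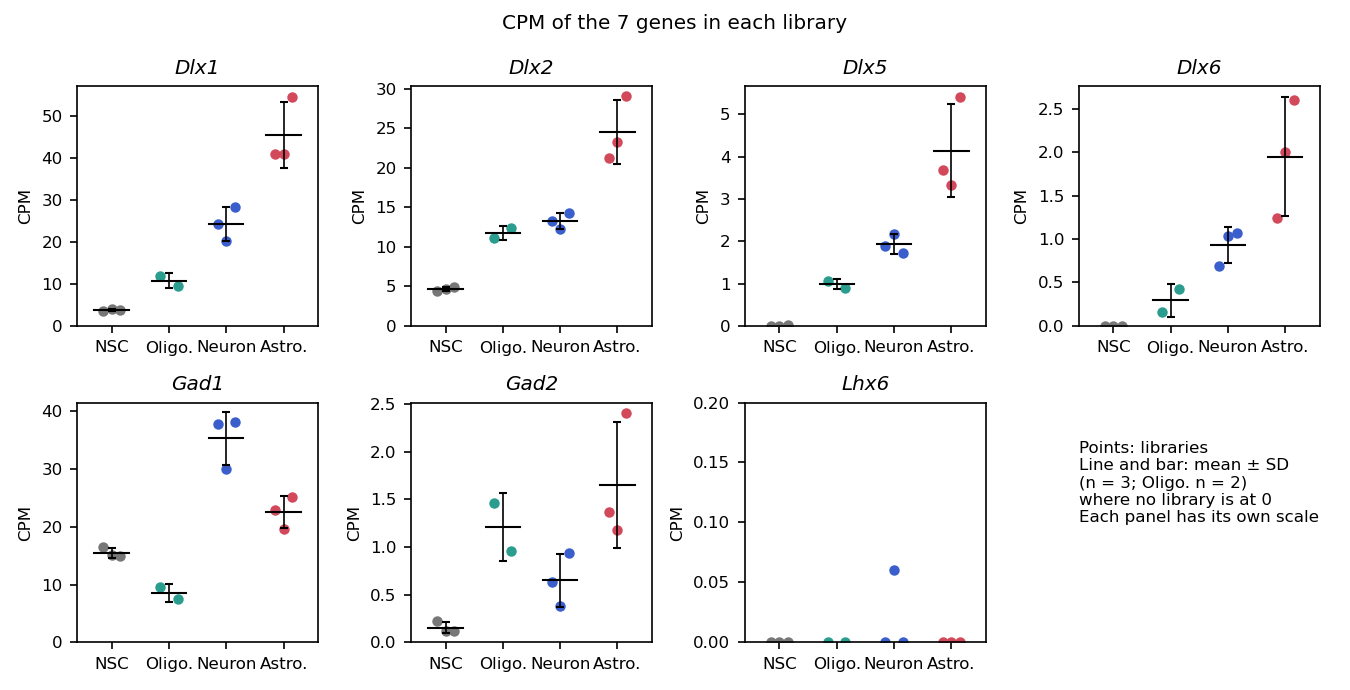
CPM of each of the 7 genes (vertical axis, own scale in each panel) in the NSC, Oligodendrocyte, Neuron and Astrocyte libraries. Points are libraries, and lines and bars are the mean ± SD (n = 3, Oligodendrocyte n = 2), drawn where no library of the group is at 0. The Dlx genes climb from NSC to Astrocyte, Gad1 peaks in Neuron at 30.01 to 38.10 CPM, and Lhx6 lies on 0 but for 0.06 CPM in 1 Neuron library.

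Read by comparison, 6 of the 6 tested members were higher in Astrocyte than in NSC and none lower, where 83.6% of all tested genes were called, 48% higher and 35.6% lower. In Neuron against NSC, 6 were higher, where 83.1% of genes were called, 43.5% higher and 39.6% lower. In Oligodendrocyte against NSC, 4 were higher and Gad1 was lower, where 80.2% of genes were called, 48.1% higher and 32.2% lower. With most of the transcriptome called in each, that members were called at all is near the background. These 3 comparisons share the NSC libraries. Dlx5, Dlx6 and Gad2 were tested only because they were present at day 4, so these counts support nothing on their own.

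Among the day 4 groups, 5 members were higher and Gad1 was lower in Astrocyte against Neuron, where 62.2% of genes were called, 40.3% higher and 22% lower. In Oligodendrocyte against Neuron, where the media differ by T3 alone, 4 members (Dlx1, Dlx5, Dlx6 and Gad1) were lower and none was higher, where 67.5% of genes were called, 43.9% higher and 23.6% lower. In Oligodendrocyte against Astrocyte, 5 members were lower, with only Gad2 not called, where 52.2% of genes were called, 28.7% higher and 23.5% lower. The differences in that comparison were -1.98 for Dlx1, -1.0 for Dlx2, -1.35 for Dlx5, -1.17 for Dlx6 and -1.31 for Gad1 (limma adjusted p from 1.70e-07 to 6.67e-05). Dlx5 and Dlx6 did not pass the filter through Oligodendrocyte, and Gad2 passed it through Astrocyte alone, so the day 4 counts that include them support nothing on their own either.

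**Figure D2:**
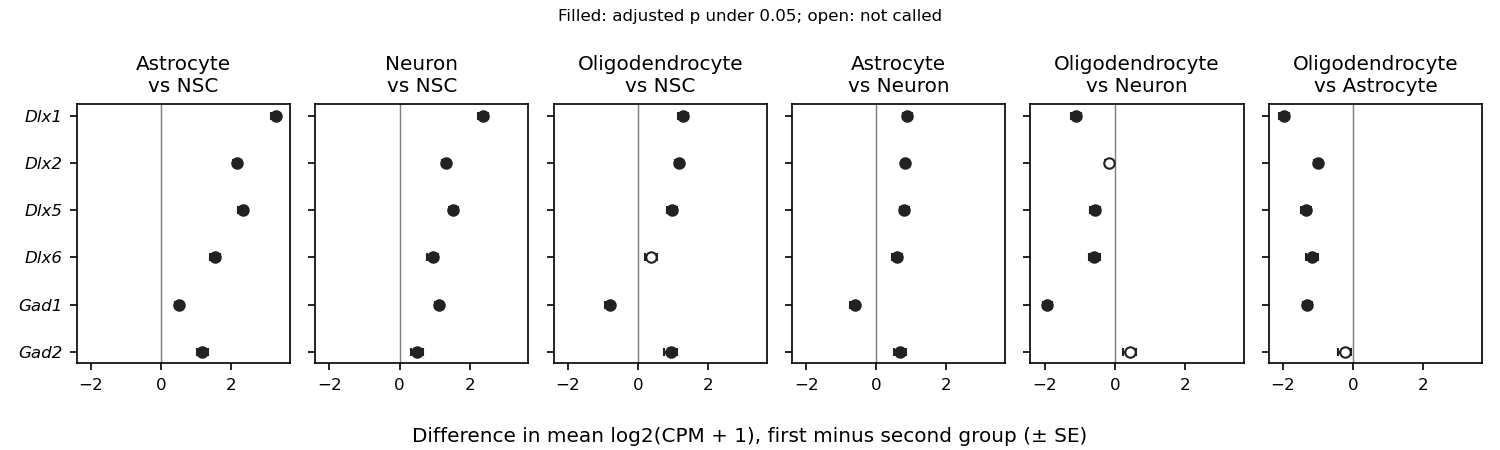
Log2(CPM + 1) difference of each tested member in the 6 comparisons, as first minus second group, with the SE from limma. Filled points were called and open points were not. Gad1 lies opposite to the Dlx genes in Oligodendrocyte against NSC, at -0.80, and in Astrocyte against Neuron, at -0.62.

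The balance between members also moved, as ratios of CPM within a library show; these ratios were chosen after the values were seen and carry no test. Dlx1 to Dlx2 was 0.762 to 0.844 in NSC and 0.769 to 1.08 in Oligodendrocyte, but 1.63 to 1.98 in Neuron and 1.75 to 1.92 in Astrocyte. In this ratio the T3 group overlapped day 0, and the Neuron and Astrocyte libraries lay above both. Gad1 to Dlx1 was 3.81 to 4.54 in NSC, 1.34 to 1.56 in Neuron, 0.782 to 0.804 in Oligodendrocyte and 0.461 to 0.560 in Astrocyte, with no overlap. Gad1 to Gad2 was 74.9 to 125.7 in NSC, 40.5 to 79.0 in Neuron, 10.5 to 16.7 in Astrocyte and 6.60 to 7.74 in Oligodendrocyte. The NSC and Neuron values of that last ratio overlapped, and the NSC values rest on the 7 to 13 Gad2 reads given above.

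**Figure D3:**
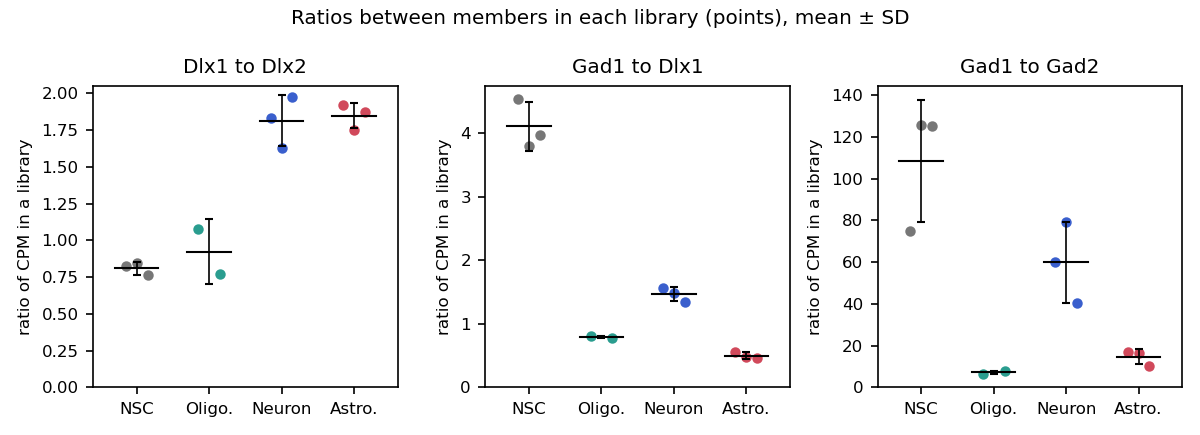
Ratio of CPM between 2 members in each library (points), with the group mean ± SD (n = 3, Oligodendrocyte n = 2). Dlx1 to Dlx2 lies at 1.08 or lower in NSC and Oligodendrocyte and at 1.63 or higher in Neuron and Astrocyte, and Gad1 falls relative to Dlx1 in all day 4 groups.

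Dlx6os1, the noncoding antisense RNA of the Dlx5 and Dlx6 locus, was listed at 0 in all NSC libraries. It measured 6.74, 8.30 and 12.17 CPM in Astrocyte, 2.39, 1.90 and 2.44 in Neuron, and 2.45 and 1.45 in Oligodendrocyte. Like Dlx2 it was highest in Astrocyte, with Neuron and Oligodendrocyte overlapping (-0.15, limma adjusted p = 0.490). Dlx1as, the antisense gene of Dlx1, stayed under the filter, at 0.05 to 0.07 CPM in NSC, 0.47 to 1.23 in Astrocyte, 0.26 to 0.53 in Neuron and 0.09 to 0.20 in Oligodendrocyte.

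Of 28 other ventral factors, 21 were tested. The counts of this and the later lists are to be read against the shares of all tested genes called in the same comparison. Against NSC these shares were 48% higher and 35.6% lower in Astrocyte, 43.5% and 39.6% in Neuron, and 48.1% and 32.2% in Oligodendrocyte. They were 40.3% and 22% in Astrocyte against Neuron, 43.9% and 23.6% in Oligodendrocyte against Neuron, and 28.7% and 23.5% in Oligodendrocyte against Astrocyte. In Astrocyte 11 rose from NSC and 8 fell, with a median log2 difference of 0.25 against 0.15 for all genes. In Neuron 12 rose and 5 fell (median 0.51, all genes 0.06), and in Oligodendrocyte 9 rose and 9 fell (median 0.12, all genes 0.19). The list as a whole did not follow the Dlx genes: in Astrocyte against Neuron 7 were higher and 12 lower (median -0.45, all genes 0.10). Against Neuron, 4 were higher and 14 lower in Oligodendrocyte (median -0.46, all genes 0.15). In Oligodendrocyte against Astrocyte, 4 were higher and 10 lower (median -0.27, all genes 0.04).

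Sp9, a zinc-finger factor of ventral neuroblasts, did follow them. It measured 1.00, 1.19 and 1.16 CPM in NSC, 9.74, 10.75 and 15.61 in Astrocyte, 6.07, 5.20 and 6.72 in Neuron, and 3.85 and 3.88 in Oligodendrocyte. The groups did not overlap, and the log2 difference from NSC was 2.60, 1.72 and 1.20 in Astrocyte, Neuron and Oligodendrocyte (all called). Sp8, the paralogue of Sp9, changed less: it rose by 0.53 in Astrocyte, gave -0.15 in Neuron (not called) and was lower in Oligodendrocyte, at -0.57. Gsx2, an early ventral factor, was listed at 0 in all libraries but 1 NSC library at 0.02 CPM.

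Of 17 genes for making, moving and breaking down GABA besides Gad1 and Gad2, 15 were tested. In Astrocyte 9 rose and 3 fell from NSC (median 1.74), in Neuron 10 rose and 4 fell (median 0.66), and in Oligodendrocyte 10 rose and 3 fell (median 0.84). The medians of all genes are those given for the ventral factors. With median-of-ratios scaling, 5 fell in Astrocyte and 5 in Oligodendrocyte, and without Oligodendrocyte replicate 2 only 1 fell there. Astrocyte against Neuron gave 5 higher and 4 lower (median 0.03), Oligodendrocyte against Neuron 5 and 5 (median 0.02), and Oligodendrocyte against Astrocyte 7 and 3 (median -0.03). Median-of-ratios scaling gave 7 lower in Astrocyte against Neuron, and leaving out Oligodendrocyte replicate 2 gave 3 lower in Oligodendrocyte against Neuron.

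Slc32a1, the vesicular GABA transporter, was near 0 at day 0, at 0.02, 0.03 and 0.02 CPM. It reached 1.68, 2.46 and 3.31 CPM in Astrocyte, 0.63, 0.32 and 1.16 in Neuron, and 1.5 and 0.99 in Oligodendrocyte, so that Neuron and Oligodendrocyte overlapped as neighbours. Its order over the groups was that of Gad2, with Neuron the lowest day 4 mean for both. Abat, the GABA transaminase that breaks GABA down and is also expressed by glia, was 355.64 to 430.52 CPM in the day 4 libraries and 41.20 to 46.50 in NSC, and no day 4 comparison called it. Glul, the glutamine synthetase of astrocytes, rose by 2.60, 3.66 and 3.31, and Slc38a3, a glutamine transporter, rose by 2.42, 0.66 and 3.52.

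Genes of interneuron types were 20, of which 10 were tested. In Astrocyte 8 rose and 1 fell from NSC (median 1.58), or 5 and 2 with quantile normalization. In Neuron 7 rose and 1 fell (median 1.16), or 7 and 2 with quantile normalization, and in Oligodendrocyte 8 rose and 2 fell (median 1.79). Calb2, Pvalb and Nrxn3 passed the filter only through day 4 libraries, so their rise from NSC is built into these counts, as it is for Dlx6os1 and Npas1 among the ventral factors, Slc32a1 among the GABA genes and Rbfox3 among the young neuron genes. Astrocyte against Neuron gave 5 higher and 4 lower (median 0.15), Oligodendrocyte against Neuron 3 and 2 (median 0.09), and Oligodendrocyte against Astrocyte 4 and 4 (median -0.05). The second became 3 and 4 with median-of-ratios scaling, and the last 2 and 4 without Oligodendrocyte replicate 2. Calb2, the calcium-binding protein calretinin, was 0.03 to 0.17 CPM in NSC. It measured 18.21, 22.08 and 31.45 CPM in Astrocyte, 6.64, 5.00 and 6.66 in Neuron, and 8.66 and 7.90 in Oligodendrocyte, the highest libraries being those of Astrocyte as for the Dlx genes. Pvalb, parvalbumin, was 0.17 to 0.30 CPM in NSC, 15.05 to 19.88 in Astrocyte, 0.85 to 1.84 in Neuron and 4.92 to 5.44 in Oligodendrocyte. Its groups did not overlap. Cxcr4 and Nrxn3, a chemokine receptor used by migrating interneurons and a neurexin of synapses, rose in all 3 media, by 3.76, 2.17 and 3.56 and by 3.27, 2.63 and 2.08. Nxph1 of the same list went the other way, from a mean of 44.05 CPM in NSC to 11.03 in Astrocyte, 20.48 in Neuron and 18.96 in Oligodendrocyte. Mean CPM was also lower in Astrocyte than in Neuron for Erbb4 (89.4 against 125.4), Reln (3.72 against 5.22) and Elfn1 (12.21 against 17.45), unlike for the Dlx genes. The neuropeptide genes of cortical interneurons stayed low: Sst at 0.20 CPM or less, Npy at 0.26 or less and Vip at 0 in all 11 libraries.

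**Figure D4:**
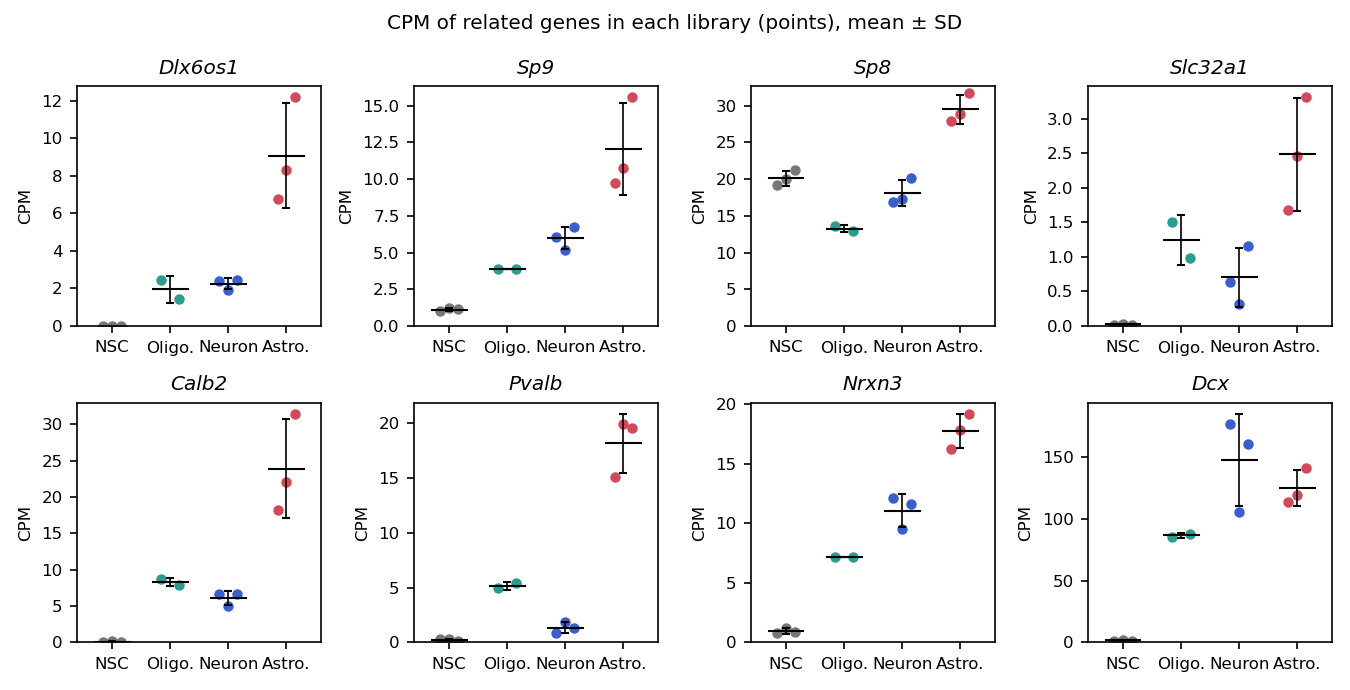
CPM of Dlx6os1, Sp9, Sp8, Slc32a1, Calb2, Pvalb, Nrxn3 and Dcx in each library (points), with the group mean ± SD (n = 3, Oligodendrocyte n = 2) where no library is at 0. All but Dcx have their highest mean in Astrocyte, and Dcx overlaps between Astrocyte and Neuron.

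Young neuron genes did not move together. Dcx, a microtubule protein of migrating young neurons, was 1.45, 2.02 and 1.33 CPM in NSC, 113.38, 119.68 and 141.25 in Astrocyte, 177.06, 105.84 and 160.23 in Neuron, and 85.17 and 88.06 in Oligodendrocyte. Astrocyte and Neuron overlapped (-0.21, limma adjusted p = 0.256), unlike for each Dlx gene. Of 12 young neuron genes, 11 were tested: 6 rose and 4 fell from NSC in Astrocyte (median 0.32), 7 and 3 in Neuron (median 0.70), and 7 and 4 in Oligodendrocyte (median 0.66). In Astrocyte against Neuron, 1 was higher and 7 were lower (median -0.49), with Tubb3 the higher one, at 0.48; none was higher with quantile normalization or without Astrocyte replicate 3 or Neuron replicate 2. Oligodendrocyte against Neuron gave 4 and 5 (median 0.18) and Oligodendrocyte against Astrocyte 4 and 3 (median 0.16). Without Oligodendrocyte replicate 2 these became 1 and 5 and 4 and 1. Dcx and Tubb3 rose in all 3 media, while Gap43 and Elavl4 fell in all 3. The summed list was 1021 to 1112 CPM in NSC, 874 to 918 in Astrocyte, 1064 to 1368 in Neuron and 1046 to 1092 in Oligodendrocyte. Map2 made up most of these sums, at means of 885.3 CPM in NSC, 604.3 in Astrocyte, 865.6 in Neuron and 653.9 in Oligodendrocyte. Mean Elavl3 was 17.85 CPM in NSC, 44.42 in Astrocyte, 90.94 in Neuron and 178.3 in Oligodendrocyte, the day 4 order being the reverse of the Dlx1 order. Mean Sox11 was 32.49 in NSC and 15.18, 14.11 and 7.03 in Astrocyte, Neuron and Oligodendrocyte. The part of neuron number in the members' levels was not tested.

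Genes of the dorsal, glutamatergic lineage were 15, of which 6 were tested. From NSC, 2 rose and 3 fell in Astrocyte (median 0.01), 4 and 2 in Neuron (median 0.46), and 1 and 3 in Oligodendrocyte (median -0.37). Neurod1 passed the filter only through Neuron libraries and Neurog2 only through Neuron and Oligodendrocyte libraries, so these counts support no direction. Quantile normalization gave 1 and 4 in Astrocyte and 2 and 1 in Neuron. Leaving out NSC replicate 2 or 3 left 1 lower in Neuron, as did leaving out Neuron replicate 1 or 3, each of which also left 1 lower in Astrocyte against Neuron. Between day 4 groups, 0 were higher and 2 lower in Astrocyte against Neuron (median -0.22), 0 and 5 in Oligodendrocyte against Neuron (median -0.80), and 1 and 3 in Oligodendrocyte against Astrocyte (median -0.38), or 2 and 3 without Astrocyte replicate 1. Pax6, a factor of cortical progenitors, rose by 1.20 in Astrocyte and 1.11 in Neuron and gave 0.05 in Oligodendrocyte (not called). Eomes, Neurod2 and Tbr1, which mark successive stages of cortical glutamatergic neurons, did not reach the filter: Eomes was at most 0.64 CPM, Neurod2 at most 0.65 and Tbr1 at most 0.29.

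**Figure D5:**
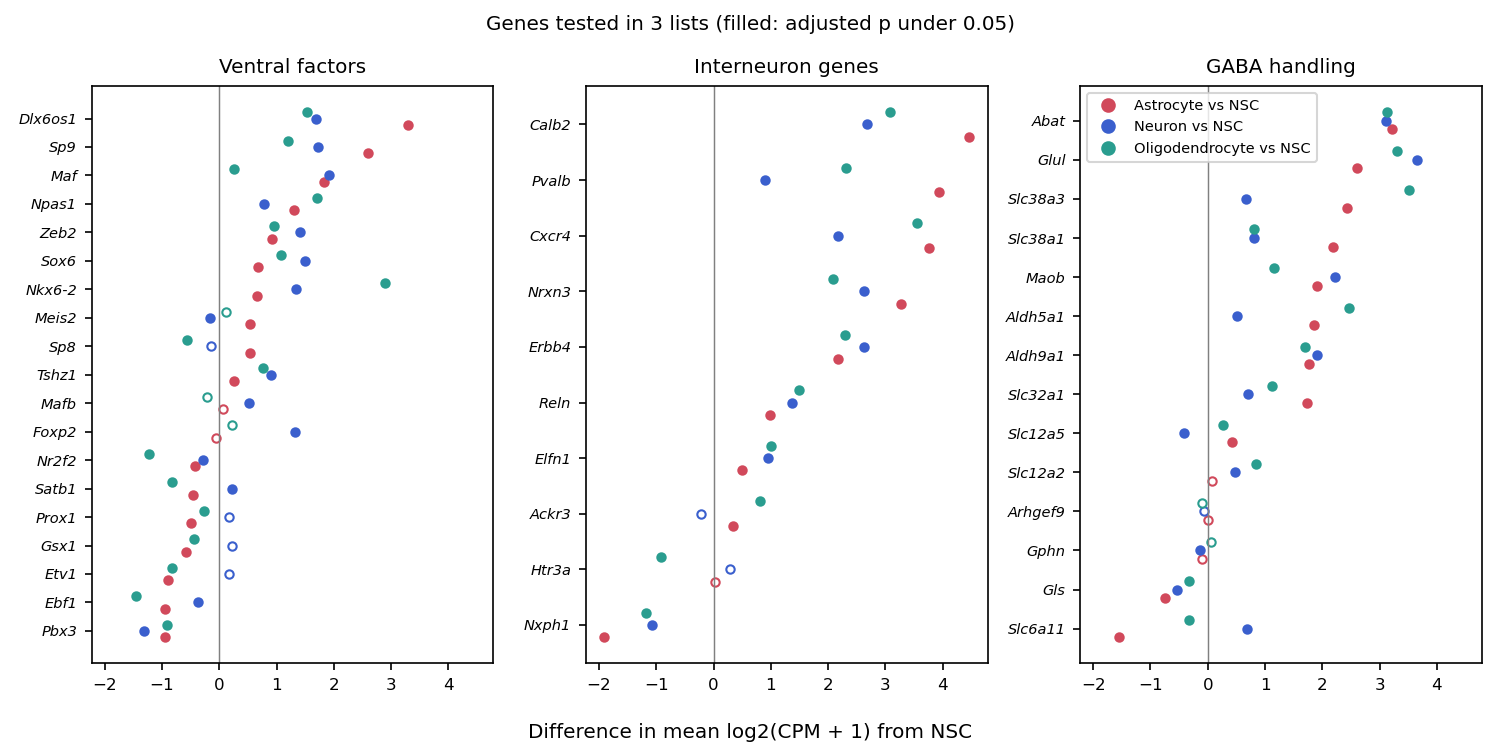
Log2(CPM + 1) difference from NSC of tested ventral factors, interneuron genes and GABA-handling genes (3 not shown) in Astrocyte, Neuron and Oligodendrocyte. Filled points were called and open points were not. Dlx6os1 and Sp9 lead the ventral factors in Astrocyte, at 3.30 and 2.60, while Pbx3 is lower in all 3 media.

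The genes outside the 7 whose pattern over the 11 libraries lay nearest to each member were taken by the root mean square difference of centred log2(CPM + 1). For Dlx1 they were Gpr179, Mdfi and Cpxm1 (0.193, 0.194 and 0.2), and for Dlx2 Myl9, Slc8a1 and Mlc1 (0.111, 0.117 and 0.134). For Dlx5 they were Gm14204, Oat and Sp9 (0.164, 0.164 and 0.170), and for Dlx6 Efhd1, Adcy8 and Ctf1 (0.145, 0.151 and 0.157). Gad1 lay nearest to 2610203C20Rik, Lix1l and Col16a1 (0.167, 0.206 and 0.215), and Gad2 to B230217O12Rik, Tmem144 and Frmpd4 (0.165, 0.167 and 0.174).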

How the data were processed

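Polyadenylated RNA of 11 libraries was sequenced by the authors (TruSeq Stranded mRNA, Illumina sequencing, per the labels' protocols). The deposited values are CPM (reads scaled to each library's total), per the file headers, with 2 decimals; the listed genes sum to 74.95% to 80.25% of the total the authors scaled to. Tools named per the submitters' processing notes are bcl2fastq 1.8.4, TopHat2 2.0.8, HTSeq 0.6.1, edgeR 3.2.4, R 3.0.0 and HOMER, with the build NCBIM37; their roles and the strand setting are not stated. The 8 columns of group means and SDs were not used.

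Genes that 2 or more libraries held at 1 CPM or above were tested with limma 3.58.1 (R 4.3.3) on log2(CPM + 1), with 1 mean for each of 4 groups over all 11 libraries, a variance trend, and Benjamini-Hochberg adjustment within each of 6 comparisons. The fold change on this scale understates the change of low genes. The fit was tested on simulated data. No count test was run, as CPM are not counts; depth was estimated from the smallest step between low values, and intervals would cover counting error only. The members and gene lists were chosen with earlier results of these data known. Beside the members, named genes are the largest called changes of each list (at most 4) plus Gsx2, Nkx2-1, Sp8, Sp9, Dlx6os1, Slc32a1, Abat, Sst, Pvalb, Vip, Npy, Dcx, Eomes, Neurod2 and Tbr1 whatever their values, and the 3 nearest genes of each tested member; 3 other genes named by that rule are counted in their lists but not reported here. Further genes are named outside that rule, among them Dlx1as, Reln, Elfn1, Map2 and single cell type markers. Alternatives were other pseudocounts, filters and scalings, a replicate block, fits on 2 groups only and leaving out each library. Promoter windows come from RefSeq.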

Additional observations from a re-analysis of the deposited data

How the results depend on the processing

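Over 20 alternative settings, 679 of 697 values for single members kept their direction and side of the threshold, 13 became called, 5 lost their call and none reversed. With a filter of at least 5 CPM in 2 libraries only Dlx1, Dlx2 and Gad1 were tested, so the number of members called was 3 in each comparison with NSC, 3 in Astrocyte against Neuron, 3 in Oligodendrocyte against Astrocyte and 2 in Oligodendrocyte against Neuron. Of all genes tested under that filter, 83.9%, 84% and 81.2% were called in Astrocyte, Neuron and Oligodendrocyte against NSC, 63.3% in Astrocyte against Neuron, 52.5% in Oligodendrocyte against Astrocyte and 68.7% in Oligodendrocyte against Neuron. A fit on the NSC and Oligodendrocyte libraries alone called 3 members of the 3 it could test, Dlx5, Dlx6 and Gad2 falling under the filter, where 85.1% of genes were called. Changes of single calls (Dlx2, Dlx6 and Gad2) stand beside their results; Dlx6 in Oligodendrocyte against NSC was also called without Astrocyte replicate 1 or 3 or Neuron replicate 2 (limma adjusted p = 0.0182, 0.0292 and 0.0431). Of 1200 list counts under these alternatives, 61 moved by over 1.5 times. The cause of these changes was not tested.

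Whether replicate numbers pair the libraries was not settled. Deviations of the 15 same-numbered pairs correlated from -0.51 to 0.41, 6 of them over 0.1. The 30 pairs with different numbers correlated from -0.54 to 0.54, 7 of them over 0.1. Of 11 libraries, 6 correlated best with their own number. Deviations from a group mean are tied to each other within small groups, so this check cannot decide on pairing. With a replicate block, 6 members were called in Oligodendrocyte against NSC, where Dlx6 gave 0.44 (limma adjusted p = 0.0128) and 79.4% of genes were called, and 5 in Oligodendrocyte against Neuron, where Gad2 gave 0.53 (limma adjusted p = 0.00896) and 66.7% of genes were called. Depth limits Lhx6, the NSC levels of Dlx5, Dlx6 and Gad2, and Dlx6 in Oligodendrocyte. The Oligodendrocyte group has 2 libraries, which limits its precision.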
